A study of Mus musculus with 9 samples.

Results

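Transcription factors of the anterior neural plate, the part of the ectoderm that gives rise to forebrain and eyes, were followed in cultured mouse epiblast-like cells. The group was defined by symbol as Pax6, Hesx1, Six3, Lhx2, Lhx5, Rax, Fezf1, Irx3 and Emx2. Of these 9 genes, 8 were found among the 23453 gene symbols of the count table, and Fezf1 was not analysed here. The libraries came from 3 states. EpiLCs were naive embryonic stem cells (ESCs) kept for 48 h in N2B27 medium with 1% KSR (a serum replacement), Activin A and FGF2. For aEpiLCs, EpiLCs were kept for another 24 h in N2B27 without Activin (called basal in the labels, with KSR added according to the methods). For pEpiLCs, they were kept for another 24 h with Activin and CHIR99021, an agonist of WNT signalling. FGF2 is named for the EpiLC medium alone, and Activin for both EpiLC and pEpiLC media. In comparisons with EpiLC, the change of factors and the extra 24 h therefore cannot be told apart. Each state had 3 libraries, 9 in all, of wild-type cells whose line was not named. The labels do not say that replicates were separate cultures, so p-values measure the spread between these libraries, which may be technical.

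The anterior neural plate forms where epiblast cells are shielded from Nodal/Activin and WNT signals. Hesx1, Six3 and Rax are early homeobox genes of the prospective forebrain and eye field, and Six3 is known to repress WNT genes. Pax6 is a paired-box factor of eye, forebrain and neural progenitors. Lhx2 and Lhx5 are LIM-homeobox factors of the eye field and anterior neural plate. Emx2 patterns the cerebral cortex, and Irx3, of the Iroquois family, is expressed in the neural plate behind the most anterior forebrain.

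The group was measured near the detection limit, and 41 of its 72 values (8 genes in 9 libraries) were at or under it. Total counts were between 20560583 and 23417935 per library, and 3 counts, taken as the limit, corresponded to 0.130 to 0.143 CPM (counts scaled to library size and normalised for composition). Of the 72 values, 15 were at 0. Only Irx3 exceeded 3 counts in all 9 libraries. In EpiLCs, Six3, Lhx5, Rax and Emx2 were at the limit in every library. In pEpiLCs, this held for Pax6, Hesx1, Six3 and Rax. In aEpiLCs, all 8 genes exceeded the limit in at least 1 library, but Hesx1, Six3, Lhx5, Rax and Emx2 did so in just 1 of 3. In bulk RNA, fewer expressing cells and less RNA per cell cannot be told apart.

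One library stood apart from the other replicates of its state. Between pEpiLC replicate 1 and replicates 2 and 3, 324 and 333 genes differed by more than 4-fold, against 66 between replicates 2 and 3. The 11 measured markers of anterior mesendoderm and node (tissue of the primitive streak's anterior end) summed to 413 CPM in pEpiLC replicate 1 and to 67.2 and 58.6 CPM in replicates 2 and 3. Their sum was 5.04 to 5.80 CPM in EpiLCs and 3.87 to 5.43 CPM in aEpiLCs. The 10 measured extraembryonic endoderm markers summed to 74.6 CPM in pEpiLC replicate 1 and to 12.6 and 12.4 CPM in the other replicates, against 38.4 to 46.0 CPM in EpiLCs and 21.3 to 21.6 CPM in aEpiLCs. In that library Gata6 had 46.5 and Gata4 12.3 CPM, at most 0.506 CPM each in all others, whereas Rhox5, Amn and Dab2 were lower in every pEpiLC library than in any EpiLC library. The 6 measured fibroblast markers summed to 71.3, 15.5 and 16.3 CPM in the pEpiLC replicates, 20.1 to 22.9 CPM in EpiLCs and 21.2 to 24.8 CPM in aEpiLCs. Most of the difference between the pEpiLC replicates was Pdgfra, a receptor also expressed in early mesoderm, with 51.6, 2.13 and 2.11 CPM. Of the 5 fibroblast markers tested in pEpiLC over EpiLC, Pdgfra and Col1a2 rose and Dcn fell, with and without pEpiLC replicate 1. The call of Pdgfra was lost with DESeq2 and when any EpiLC replicate was left out. Col1a2, a collagen, had a log2 fold change (log2FC) of 2.03 (edgeR, adjusted p = 0.00474) and of 1.53 without that library (adjusted p = 7.78e-05). The part of these differences in the results was not tested, and member results that rest on this library are given with and without it. The 9 formative epiblast markers, which check the cell type, were present in all libraries and summed to 5311 to 5630 CPM in EpiLCs, 4807 to 5051 CPM in aEpiLCs and 2074 to 3499 CPM in pEpiLCs.

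**Figure D1:**
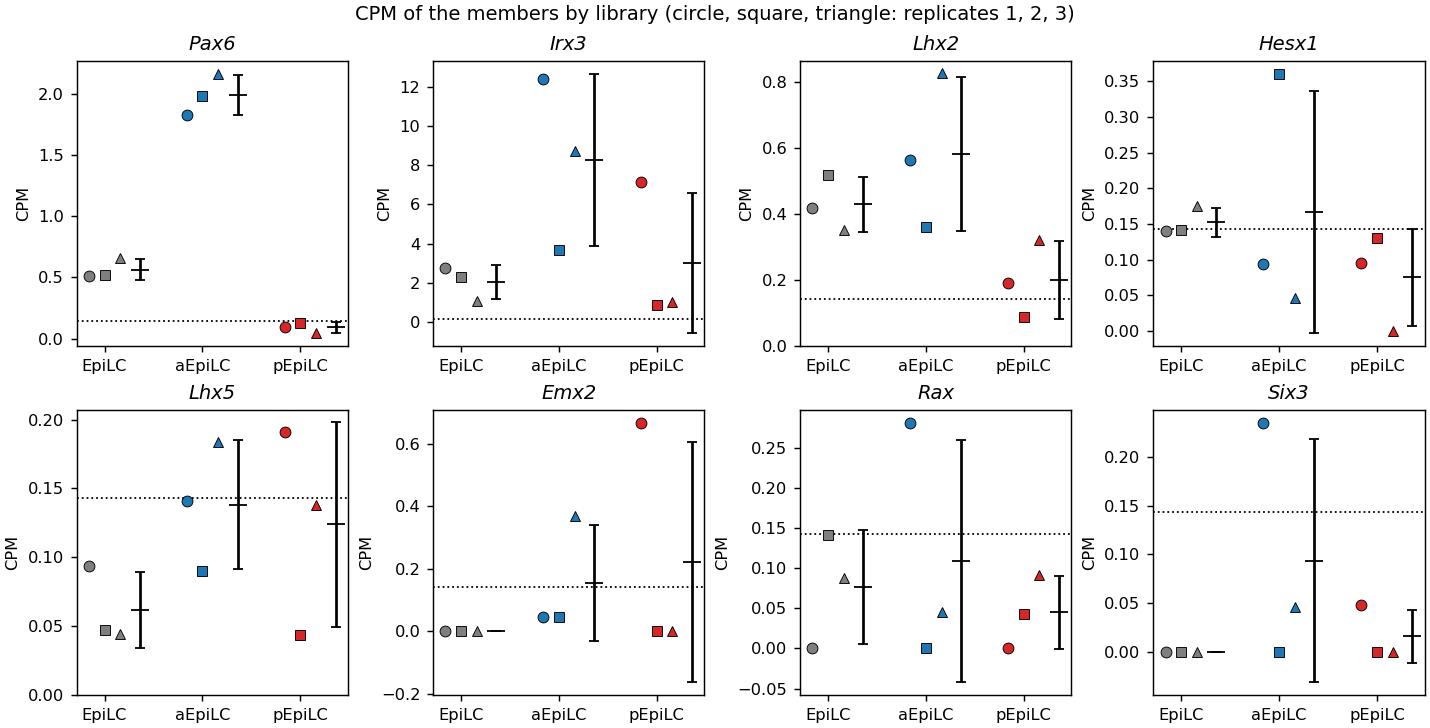
CPM (vertical axes, scaled for each gene) of the 8 measured anterior neural plate factors in 3 EpiLC, 3 aEpiLC and 3 pEpiLC libraries. Circles, squares and triangles are replicates 1, 2 and 3, the bar beside them is the mean ± SD, and the dotted line is the highest CPM that 3 counts give (0.143). Pax6 separates the states, while in the lower row most points are under the line.

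Pax6 was the one member whose 3 states were separated in all comparisons. The gene (ENSMUSG00000027168.21) is on the plus strand of GRCm38 at chr2:105668900-105697364. It had 0.513, 0.518 and 0.659 CPM in EpiLC replicates 1, 2 and 3. In the aEpiLC replicates it had 1.83, 1.98 and 2.16 CPM. In the pEpiLC replicates it had 0.0953, 0.130 and 0.0460 CPM, which were 2, 3 and 1 counts. All aEpiLC libraries were thus above all EpiLC libraries, and all pEpiLC libraries below them. The means were 0.564 ± 0.0828, 1.99 ± 0.166 and 0.0906 ± 0.0424 CPM (SD, n = 3) in EpiLC, aEpiLC and pEpiLC.

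The DNA just before the first RefSeq start of Pax6 is shown because this was the member that differed between every pair of states. The 250 bases (GRCm38.p6, plus strand, chr2:105668646-105668895) lie outside exons of the GENCODE annotation. Capitals mark a cAMP response element, TGACGTCA, 76 bases before the start, and a CCAAT box, CCAAT, 54 bases before it.
Pax6: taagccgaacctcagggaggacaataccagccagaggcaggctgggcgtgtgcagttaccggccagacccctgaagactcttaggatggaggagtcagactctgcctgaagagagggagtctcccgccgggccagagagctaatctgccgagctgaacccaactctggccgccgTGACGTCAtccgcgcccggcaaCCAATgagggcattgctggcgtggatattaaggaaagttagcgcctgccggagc
On both strands of 32851 mouse promoter windows of this length, 1.55% held TGACGTCA and 33.8% held CCAAT. The window holds neither the TCF/LEF letters CTTTGAT, found in 3.21% of all windows, nor the OTX-type letters TAATCC, found in 6.25%. The homeodomain core TAATTA (4.84% of windows) is also not in it. The same holds for the TATA box TATAAA (12.4% of windows). Matches describe letters only, and the motifs do not overlap each other in this window. The window before a second RefSeq start of Pax6 (chr2:105682213-105682462), which lies within annotated exons, holds none of the motifs searched. Which start was used in these cells was not tested.

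Between aEpiLC and EpiLC, which differ in the further culture without Activin, 3 members had enough counts for the test (edgeR's quasi-likelihood test, with p-values adjusted by Benjamini-Hochberg, where a call needed a value below 0.05 and a change of at least 1 on the log2 scale). Pax6 and Irx3 rose and Lhx2 did not pass. Of all 15301 genes tested, 7.25% were called higher and 5.24% lower. The log2FC of Pax6 was 1.81 (standard error, SE, 0.301, adjusted p = 0.000279). It was called under all 13 alternative settings, with log2FCs from 1.74 to 1.94.

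Irx3 (ENSMUSG00000031734.13, minus strand, chr8:91798525-91802067) was the member with the most counts. It had 2.75, 2.26 and 1.05 CPM in the EpiLC replicates and 12.4, 3.69 and 8.74 CPM in the aEpiLC replicates. All aEpiLC libraries were above all EpiLC libraries, although the aEpiLC values differed among themselves by more than the EpiLC values did. The means were 2.02 ± 0.874 and 8.29 ± 4.39 CPM (SD, n = 3). The log2FC was 2.04 (SE 0.390, adjusted p = 0.000819), and the adjusted p was 0.0552 when all 9 libraries shared one fit, which ended the call.

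Lhx2 (ENSMUSG00000000247.11, plus strand, chr2:38339281-38369733) had 0.420, 0.518 and 0.352 CPM in EpiLCs and 0.563, 0.360 and 0.828 CPM in aEpiLCs. The libraries of both states overlapped. The log2FC was 0.44 (SE 0.434, adjusted p = 0.431), with a 95% interval from -0.41 to 1.29, which includes both no change and changes past the limit.

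The 5 other members had too few counts for the fit. Emx2 (chr19:59458372-59465357) had 0 counts in each EpiLC library and 1, 1 and 8 counts in the aEpiLC replicates. Its mean was at least 1.08-fold higher in aEpiLCs against a floor of 3 counts per EpiLC library. The libraries did not overlap, but aEpiLC replicates 1 and 2 were under that floor. The bound thus rests on replicate 3, which held most of the counts. Six3 had 0 counts in each EpiLC library and 5, 0 and 1 counts in the aEpiLC replicates. Rax had 0, 3 and 2 counts in EpiLCs and 6, 0 and 1 counts in aEpiLCs. Both were thus high in aEpiLC replicate 1 alone.

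Hesx1 had 3, 3 and 4 counts in EpiLCs and 2, 8 and 1 counts in aEpiLCs. The ratio of the summed counts, scaled to library size, was 1.10, with a 95% interval of 0.425 to 2.89 that covers counting error only. Lhx5 had 2, 1 and 1 counts in EpiLCs and 3, 2 and 4 counts in aEpiLCs. Its ratio was 2.25, with an interval of 0.629 to 10.02 from counting alone. For neither gene was a difference detectable at this depth.

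With no filter on low counts, all 8 members entered the fit. The same 2 calls, Pax6 and Irx3, were then made, and Emx2 had an adjusted p of 0.0516. An exact permutation test (two-sided) of 3 against 3 libraries cannot give a p below 0.1. Pax6, Irx3 and Emx2 had that smallest p, the libraries of the 2 states not overlapping. Among all genes tested, 56.3% had libraries that did not overlap in this comparison.

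**Figure D2:**
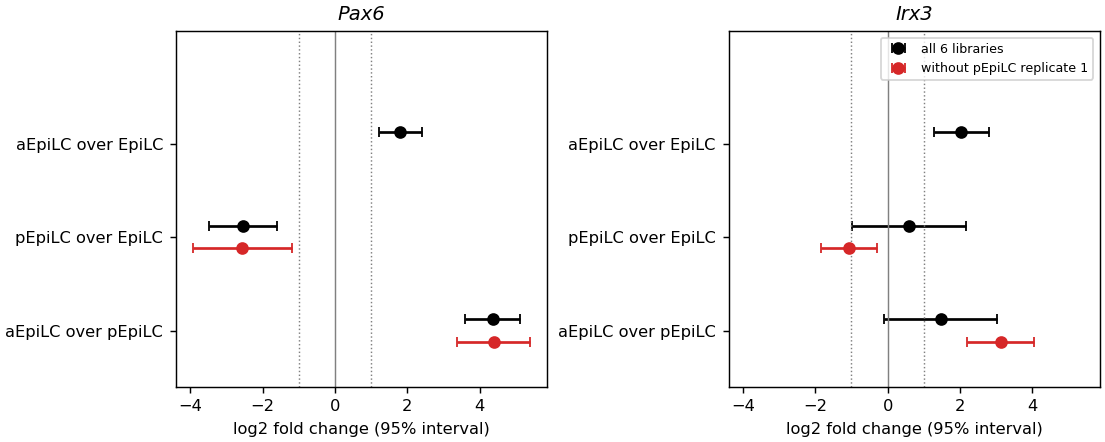
Log2FCs of Pax6 (left) and Irx3 (right) from edgeR in the 3 comparisons of states, with 95% intervals. Black points use all 6 libraries of the 2 states, red points leave out pEpiLC replicate 1, and dotted lines mark the fold limit of 1. Pax6 hardly moved without that library, and Irx3 changed from 0.59 to -1.07 in pEpiLC over EpiLC.

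Between pEpiLC and EpiLC, which differ in the further culture with CHIR99021, Pax6 fell and Irx3 did not pass the test, and the other members were not tested. Of all 15288 genes tested, 7.71% were called higher and 8.13% lower. Pax6 had a log2FC of -2.54 (SE 0.481, adjusted p = 0.00495). Summed over replicates, it had 6 counts in pEpiLCs and 37 in EpiLCs, a ratio of 0.161 with a counting interval of 0.0557 to 0.386. It was called under all 12 alternative settings that tested it.

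Irx3 depended on 1 library. The pEpiLC replicates had 7.15, 0.869 and 1.01 CPM, so replicate 1 was above all EpiLC libraries and replicates 2 and 3 were below them. The log2FC over EpiLC was 0.59 (SE 0.804, adjusted p = 0.578). Without pEpiLC replicate 1 it was -1.07 (SE 0.395, adjusted p = 0.0337), a call in the opposite direction. The remaining replicates had a mean of 0.940 ± 0.1004 CPM (SD, n = 2).

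Emx2 followed the same library. It had 14, 0 and 0 counts in the pEpiLC replicates, against 0 in each EpiLC library. The mean of the 3 pEpiLC libraries was at least 1.57-fold higher than the 3-count floor, and without replicate 1 both states were at 0. The marker sums of mesendoderm and extraembryonic endoderm, and Pdgfra, were also highest in that library. Their part in Irx3 and Emx2 was not tested.

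The other members were low in both states. Lhx2 had 4, 2 and 7 counts in pEpiLCs and 9, 11 and 8 in EpiLCs, without overlap in CPM (exact permutation p = 0.1, the smallest possible). Its mean was 0.200 ± 0.118 CPM in pEpiLCs (SD, n = 3), and the unfiltered fit gave a log2FC of -1.06 (SE 0.589, adjusted p = 0.218), which did not pass. Hesx1 had 2, 3 and 0 counts in pEpiLCs and a counting ratio of 0.497 over EpiLCs (interval 0.133 to 1.60). Its libraries also did not overlap in CPM (exact permutation p = 0.1), although a library of each state had 3 counts. Lhx5 had 4, 1 and 3 counts, a ratio of 1.99 (interval 0.533 to 9.03). Rax had 0, 1 and 2 counts and Six3 1, 0 and 0 counts, so both states were at the limit. In this comparison, 58.7% of all genes tested had libraries that did not overlap.

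Between aEpiLC and pEpiLC, the contrast of both further cultures, Pax6 was higher in aEpiLCs and Irx3 did not pass. Of all 15198 genes tested, 4.74% were called higher in aEpiLCs and 2.55% lower. Pax6 had a log2FC of 4.37 (SE 0.389, adjusted p = 0.000610). Its summed counts were 130 in aEpiLCs and 6 in pEpiLCs, a ratio of 21.8 with a counting interval of 9.76 to 60.6. The comparison shares its libraries with both comparisons above, so it is not further evidence of their directions.

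Irx3 had a log2FC of 1.46 (SE 0.797, adjusted p = 0.256), with a 95% interval from -0.10 to 3.03. It was called higher in aEpiLCs with the replicate numbers as a block, although these were not taken as pairing the samples. The pEpiLC replicate 1 value of 7.15 CPM lay between the aEpiLC values, whereas replicates 2 and 3 were below all of them. Without pEpiLC replicate 1, the log2FC was 3.13 (SE 0.478, adjusted p = 0.000655), and Irx3 was called higher in aEpiLCs. Lhx2 libraries did not overlap, with an unfiltered log2FC of 1.53 (SE 0.590, adjusted p = 0.155). Its ratio of summed counts was 2.94, with a counting interval of 1.53 to 6.02. In this comparison, 38.8% of all genes tested had libraries that did not overlap.

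The remaining members did not separate aEpiLC from pEpiLC over all libraries. The ratios of summed counts were 2.22 for Hesx1 (counting interval 0.710 to 8.13), 6.04 for Six3 (0.733 to 278) and 2.35 for Rax (0.536 to 14.1). They were 1.13 for Lhx5 (0.388 to 3.37) and 0.719 for Emx2 (0.286 to 1.74). All 5 intervals include equal levels, and the libraries of the states overlapped for each gene. The value for Emx2 rests on pEpiLC replicate 1, which held all 14 pEpiLC counts. Without it, Emx2 had 0 counts in both pEpiLC libraries against 1, 1 and 8 in aEpiLCs, so the direction turned and the libraries did not overlap. Of these aEpiLC libraries, only replicate 3 exceeded the limit of 3 counts. The single pEpiLC count of Six3 was in pEpiLC replicate 1 as well.

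Levels of different genes were compared per kilobase of exon, using the union of all annotated exons, which understates genes with many alternative exons. In aEpiLCs, Irx3 had 3.00 ± 1.59 CPM per kb (SD, n = 3), above 62.9% of the symbols with a known length. Pax6 followed with 0.170 ± 0.0142, then Hesx1 with 0.133 ± 0.136 and Lhx2 with 0.133 ± 0.0534 CPM per kb. Lhx5 had 0.0514 ± 0.0175, Emx2 0.0511 ± 0.0619, Rax 0.0187 ± 0.0258 and Six3 0.0172 ± 0.0228 CPM per kb. Irx3 stood above the rest, and from Pax6 to Lhx2 and from Lhx5 to Six3 the neighbours did not differ beyond their spread. In EpiLCs Pax6 had 0.0482, Hesx1 0.122 and Lhx2 0.0979 CPM per kb. By comparison Otx2, a homeobox regulator of the anterior epiblast and brain outside the group, had 34.0 CPM per kb in aEpiLCs.

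The genes most like each of the better measured members were named by the Pearson correlation of log2 CPM over the 9 libraries, among 10730 genes with a mean of at least 5 CPM. These are descriptions, since the points share libraries and the 3 states. Leprot (r = 0.990), Tyro3 (0.988) and Rtl6 (0.988) were most like Pax6. Tyro3, a receptor tyrosine kinase, had 81.1 to 82.3 CPM in EpiLCs, 101 to 108 CPM in aEpiLCs and 60.2 to 67.0 CPM in pEpiLCs, the order of Pax6 at a smaller fold. Zic2 (r = 0.936), Cyp4f13 (0.933) and Rapgef2 (0.912) were most like Irx3, and Cenpt (0.984), Plpp1 (0.948) and Cd34 (0.900) most like Lhx2. The other members have too few counts for such a ranking.

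Irx5, a paralog that lies 555557 bases from Irx3 on the same chromosome (chr8:92357625-92376286), was distributed over the libraries in a similar way. It had 0.840, 0.707 and 0.791 CPM in EpiLCs, 2.67, 2.16 and 2.76 CPM in aEpiLCs, and 3.72, 0.435 and 0.552 CPM in pEpiLCs. As for Irx3, pEpiLC replicate 1 was high and replicates 2 and 3 were below all EpiLC libraries. Irx5 rose in aEpiLCs over EpiLCs by a log2FC of 1.69 (SE 0.267, adjusted p = 0.000186), a call that was lost with all 9 libraries in one fit (adjusted p = 0.0723). Over pEpiLCs its log2FC was 0.70 (adjusted p = 0.562), and 2.34 without pEpiLC replicate 1 (adjusted p = 0.000457), which is a call.

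Irx3os, whose exons overlap 124 bases of Irx3 on the opposite strand, had 0 to 6 counts per library. Whether the counting used strand is not given in the sources used here, so reads from this overlap cannot be assigned with certainty. Six3, Lhx5, Rax and Emx2 also overlap opposite-strand genes in the annotation, which were not analysed here.

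**Figure D3:**
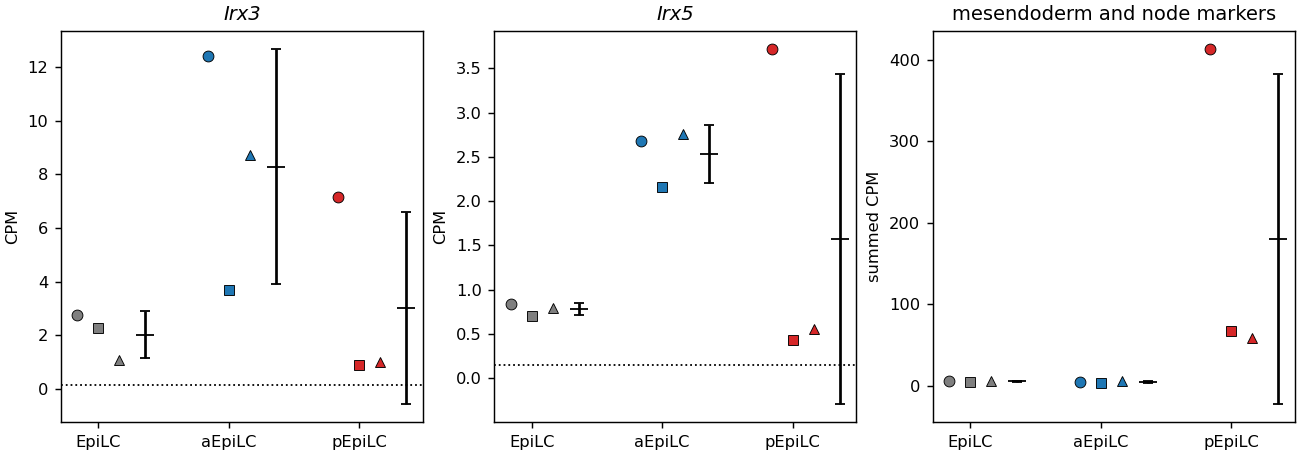
CPM of Irx3 and Irx5 and the summed CPM of 11 anterior mesendoderm and node markers in the 9 libraries, drawn as in the plot of the 8 factors. In all 3 panels pEpiLC replicate 1 (red circle) is far above pEpiLC replicates 2 and 3, with 413 CPM against 67.2 and 58.6 CPM for the markers.

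The other regulators of the anterior neural plate were also mostly low. Of 16 listed, 14 were in the table, 3 were tested in each comparison, and Six6, Emx1 and Lhx9 were among those at or under the limit in all 9 libraries. In aEpiLC over EpiLC, 2 rose. Foxd4, a forkhead factor of the early neural ectoderm, had 0.187, 0.189 and 0.0879 CPM in EpiLCs and 1.88, 1.39 and 1.29 CPM in aEpiLCs, a log2FC of 3.27 (SE 0.427, adjusted p = 3.88e-05). In pEpiLCs Foxd4 had 0.0477 CPM in replicate 1 and 0 in the others. The order of the 3 states was that of Pax6.

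Sp8, a zinc finger factor of the anterior neural ridge that is also expressed in the tail bud, differed from that order. It had 1.17, 1.13 and 1.01 CPM in EpiLCs and 7.23, 2.25 and 4.64 CPM in aEpiLCs, a log2FC of 2.09 (SE 0.363, adjusted p = 0.000395). In pEpiLCs it had 55.0, 38.5 and 36.7 CPM, above every aEpiLC library, and the log2FC over EpiLC was 5.32 (SE 0.213, adjusted p = 1.23e-05). Sp8 was therefore lower in aEpiLCs than in pEpiLCs, by a log2FC of -3.21 (SE 0.373, adjusted p = 0.00190). Otx2 had 91.0, 98.7 and 94.8 CPM in EpiLCs, 141, 149 and 141 CPM in aEpiLCs and 64.8, 76.2 and 68.6 CPM in pEpiLCs. Its log2FC of 1.04 between aEpiLC and pEpiLC was called (adjusted p = 0.000303). Leaving out pEpiLC replicate 1 gave 0.98, under the limit.

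Paralogs of the members moved in both directions. In aEpiLC over EpiLC, 9 of 30 were tested, of which 3 rose and 4 fell, with a median log2FC of 0.24 against 0.00 over all genes tested. Lmx1b, a LIM-homeobox factor of the midbrain, had 0.233, 0.566 and 0.659 CPM in EpiLCs and 6.01, 5.58 and 5.75 CPM in aEpiLCs, and 0, 0.130 and 0.184 CPM in pEpiLCs. Its log2FC in aEpiLC over EpiLC was 3.55 (SE 0.278, adjusted p = 3.89e-07). Pax8, a paired-box factor of the midbrain-hindbrain boundary and ear, fell in both further cultures. It had 1.63, 1.32 and 2.11 CPM in EpiLCs, 0.235, 0.675 and 0.276 CPM in aEpiLCs and 0, 0.0869 and 0.138 CPM in pEpiLCs. The log2FCs of Pax8 over EpiLC were -2.07 (adjusted p = 0.00101) in aEpiLCs and -4.35 (adjusted p = 0.00120) in pEpiLCs.

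In pEpiLC over EpiLC, 10 of 30 paralogs were tested, of which 3 rose and 4 fell. Lhx1, a LIM-homeobox factor of anterior mesendoderm, had 4369 counts in pEpiLC replicate 1 and 29 in each of the others. Its log2FC was 7.99 (adjusted p = 0.0317), and 2.24 without that replicate (adjusted p = 0.00159). The Lhx1 call was lost with DESeq2 and when any EpiLC replicate was left out.

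Regulators of more posterior neural plate were called in both directions. In aEpiLC over EpiLC, 2 of 7 tested rose and 2 fell. Nkx1-2, a homeobox gene of the caudal epiblast and preneural tube, had 1.73, 1.84 and 1.19 CPM in EpiLCs, 18.3, 9.54 and 14.2 CPM in aEpiLCs and 71.4, 57.3 and 63.0 CPM in pEpiLCs. Its log2FCs over EpiLC were 3.15 (adjusted p = 4.28e-07) and 5.36 (adjusted p = 4.64e-06). Nkx1-2 was thus raised in both further cultures, and higher in pEpiLCs than in aEpiLCs (log2FC of aEpiLC over pEpiLC -2.19, adjusted p = 0.000982). In pEpiLC over EpiLC, 3 of 10 tested rose and 3 fell, and without pEpiLC replicate 1, 4 rose and 2 fell.

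**Figure D4:**
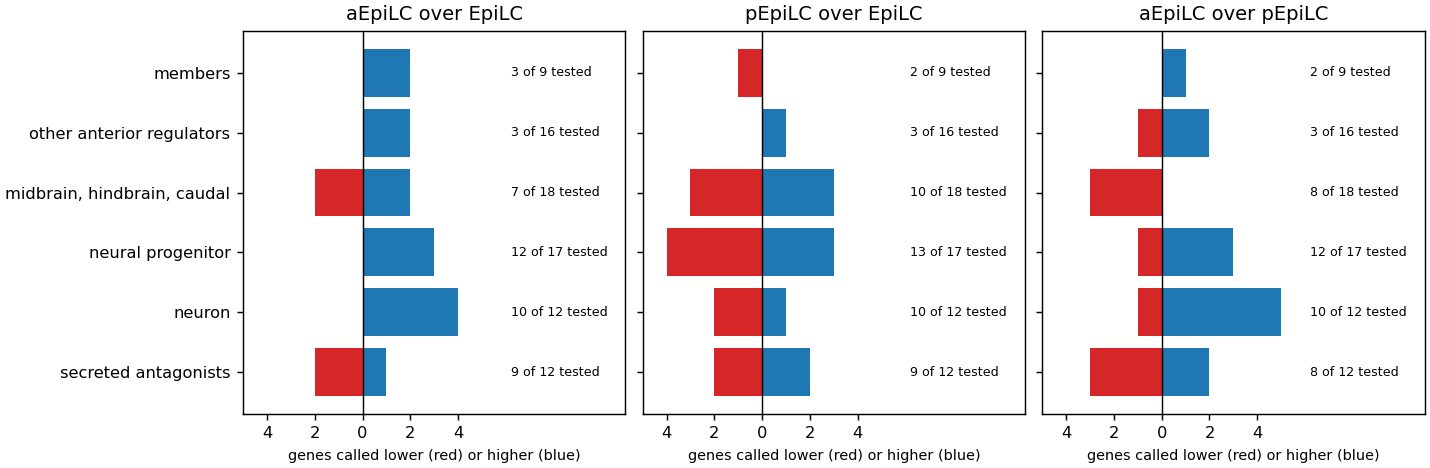
Number of genes called higher (blue, to the right) or lower (red, to the left) in the first-named state for the anterior neural plate factors and 5 related lists, in the 3 comparisons. The text beside each bar gives how many genes of the list were tested, which for the factors was 3, 2 and 2 of 9.

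Neural progenitor genes were far better measured than the anterior factors. In aEpiLC over EpiLC, 3 of 12 tested rose, namely Nes, Cdh2 and Fabp7. Nes, an intermediate filament of neural progenitors, had 110, 102 and 81.5 CPM in EpiLCs and 292, 306 and 335 CPM in aEpiLCs, a log2FC of 1.67 (adjusted p = 2.39e-08). Fabp7, a fatty acid binding protein of radial glia, had the largest change of the 3. It had 1, 0 and 1 counts in EpiLCs and 29, 23 and 19 in aEpiLCs (log2FC 4.92, adjusted p = 3.04e-05), and 44, 23 and 23 in pEpiLCs (log2FC over EpiLC 5.28, adjusted p = 0.00104). With EpiLCs at the limit, the size of both fitted changes depends on the prior count. Fabp7 was thus called higher in both further cultures, and between aEpiLC and pEpiLC it did not pass (log2FC -0.34, 95% interval -1.08 to 0.40, adjusted p = 0.590). Sox1, an early neuroectoderm factor, had 1.07, 1.37 and 1.19 CPM in EpiLCs and 0.891, 0.540 and 1.47 CPM in aEpiLCs, and did not pass (log2FC -0.32, adjusted p = 0.503). In pEpiLCs Sox1 had 0, 0.130 and 0.322 CPM and was called lower than in EpiLCs (log2FC -2.92, adjusted p = 0.00939). In pEpiLC over EpiLC, 3 of 13 progenitor genes tested rose and 4 fell. One that rose was Cdh2, the neural cadherin that mesoderm also expresses, with 275, 21.5 and 19.8 CPM in the pEpiLC replicates and 10.7 to 15.5 CPM in EpiLCs (log2FC 3.08, adjusted p = 0.0415). Without pEpiLC replicate 1 its log2FC was 0.73, under the limit. The call was also lost with DESeq2, with the replicate numbers as a block, and when any EpiLC replicate was left out. The rise of Cdh2 in aEpiLC over EpiLC (2.46-fold, adjusted p = 2.85e-06) was lost with all 9 libraries in one fit (adjusted p = 0.263).

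Some neuron markers also rose in aEpiLCs. Of 10 tested in aEpiLC over EpiLC, 4 rose, with a median log2FC of 0.94 against 0.00 over all genes. Map2, a microtubule-associated protein of neurites, had 10.3, 12.9 and 9.32 CPM in EpiLCs and 45.4, 41.4 and 36.05 CPM in aEpiLCs, a log2FC of 1.92 (adjusted p = 6.99e-08). In aEpiLC over pEpiLC, 5 of 10 were higher and 1, Dcx, was lower. Tubb3, the neuronal beta-tubulin, had 92.5, 115 and 120 CPM in aEpiLCs and 6.10, 15.4 and 15.3 CPM in pEpiLCs (log2FC 3.15, adjusted p = 0.000982). The neuron list summed to 133 to 144 CPM in EpiLCs, 292 to 322 CPM in aEpiLCs and 80.9 to 126 CPM in pEpiLCs. Neurog1 and Neurog2, which define neurogenic progenitors, had at most 0.322 CPM in all libraries. The part of these genes in the Pax6 result was not tested.

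Antagonists of the signals that restrict anterior fate were mixed. In aEpiLC over pEpiLC, 2 of 8 tested were higher and 3 lower. Sfrp1, a secreted WNT inhibitor, had 22.3, 17.8 and 17.9 CPM in aEpiLCs and 6.72, 5.91 and 6.11 CPM in pEpiLCs (log2FC 1.63, adjusted p = 0.000550). Tcf7l1, a repressor of WNT target genes required for forebrain, had 115, 126 and 115 CPM in aEpiLCs and 34.1, 58.7 and 56.0 CPM in pEpiLCs (log2FC 1.26, adjusted p = 0.00524). Of the lower genes, Lefty1, a secreted inhibitor of Nodal, had 42.6, 19.9 and 7.22 CPM in aEpiLCs and 276, 127 and 146 CPM in pEpiLCs (log2FC -2.98, adjusted p = 0.0158). That call was lost without aEpiLC replicate 2 (highest adjusted p over the alternatives 0.0842). Lefty1 also fell in aEpiLC over EpiLC, from 184, 315 and 245 CPM (log2FC -3.42, adjusted p = 1.22e-05). Frzb, a secreted WNT inhibitor, had 0.657, 0.585 and 0.552 CPM in aEpiLCs and 56.2, 3.48 and 2.62 CPM in pEpiLCs (log2FC -5.11, adjusted p = 0.0406). Without pEpiLC replicate 1 the log2FC of Frzb was -2.35 (adjusted p = 0.000218), and the call was lost with DESeq2 and when any aEpiLC replicate was left out. Chrd, a BMP inhibitor of the node, was the third, with 2.67, 2.29 and 2.48 CPM against 11.5, 9.26 and 10.6 CPM (log2FC -2.07, adjusted p = 0.000361).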

How the data were processed

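The authors sequenced the RNA as paired-end reads, mapped it with STAR 2.7.9a and quantified genes with RSEM 1.3.1. The table deposited by the authors holds expected counts from RSEM per gene symbol, not normalized, which were rounded to whole numbers here. RSEM divides reads of uncertain origin among genes. The annotation and strand setting are not given in the sources used here. Identifiers, positions and exon lengths came from GENCODE vM21 on GRCm38, where 22803 of 23453 symbols (97.2%) matched 1 gene. Promoter windows came from RefSeq on GRCm38.p6.

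R 4.3.3 was used with DESeq2 1.42.0, limma 3.58.1 and edgeR 4.0.16. The 6 libraries of each pair of states were fitted with TMM, filterByExpr and the quasi-likelihood test, with Benjamini-Hochberg adjustment over all genes tested. Calls needed an adjusted p below 0.05 and a change of at least 1 on the log2 scale in either direction. Positive values are higher in the first-named state. Standard errors were derived from the F statistic, and 95% intervals are the value ± 1.96 standard errors. CPM were TMM-normalized over 9 libraries. Counting intervals of ratios are exact Poisson intervals for summed counts. PCR copies are not independent molecules, so they cover counting error only. The procedure was tested on simulated data. Changes were planted there only in genes with a mean above 1 CPM, a level that Irx3 alone of the members reached over the 9 libraries. The count range of the other members was therefore not covered.

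The members, lists, motifs and tests were chosen with earlier results of these data known. Named genes were all members, up to 4 of each list among called genes by size of change, defining markers, and for each member above the limit the 3 genes most correlated with it. Six4 and Six5 fall outside this rule and were chosen after their values were seen. Alternatives were RLE size factors, DESeq2, the likelihood ratio test, no filter, at least 10 counts in every library, all 9 libraries in one fit, a replicate block, leaving out each replicate, and CPM without TMM.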

Additional observations from a re-analysis of the deposited data

Results flagged for a closer look

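Pax6 was flagged because its changes from EpiLC in the further cultures had opposite directions and the difference itself was called. It was higher in aEpiLCs (log2 fold change 1.81) and lower in pEpiLCs (-2.54), and the test between aEpiLC and pEpiLC gave a log2 fold change of 4.37 (edgeR, adjusted p = 0.000610). All 3 aEpiLC libraries were above, and all 3 pEpiLC libraries below, the 3 EpiLC libraries. Libraries did not overlap for 56.3% of all genes tested in aEpiLC over EpiLC and for 58.7% in pEpiLC over EpiLC. The pEpiLC values of Pax6 were 2, 3 and 1 counts, at or under the limit of 3 counts.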

How the results depend on the processing

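Of 88 refitted values of the members, 84 kept their direction and side of the threshold, and all 24 mean CPM values moved by less than 1 SD without TMM. Pax6 was called under every alternative that tested it. In aEpiLC over EpiLC, 2 members were called higher, and 1 with all 9 libraries in one fit. In pEpiLC over EpiLC, 1 was called lower, 0 with at least 10 counts in every library, where Pax6 was not tested, and 1 to 2 when a replicate was left out. In aEpiLC over pEpiLC, 1 was called higher, 0 with at least 10 counts in every library, where Pax6 was not tested either, and 1 to 2 when a replicate was left out. Irx3 in pEpiLC over EpiLC reversed to -1.07 without pEpiLC replicate 1, with values from -1.07 to 1.03 over the alternatives. The replicate numbers were not taken as pairing the samples, since correlations of deviations of same-numbered libraries were between -0.06 and 0.172. With the replicate block, 2 members were called higher in aEpiLC over pEpiLC, Pax6 and Irx3 (Irx3 adjusted p = 0.0408).

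Over all genes, 802 were lower in aEpiLC over EpiLC, and 488 with at least 10 counts in every library. In aEpiLC over pEpiLC, 721 were higher and 387 lower, and 334 to 396 and 180 to 252 when an aEpiLC replicate was left out. In pEpiLC over EpiLC, 1243 were lower, and 801 with at least 10 counts in every library. Of 72 counts of called genes in the other lists, 31 stayed within 1.5 times under all alternatives. Over aEpiLC against EpiLC, the 2 other anterior regulators called higher ranged from 1 to 2, the 4 paralogs lower from 2 to 4, and the posterior regulators from 1 to 2 higher and 1 to 3 lower. Over pEpiLC against EpiLC, the 3 paralogs higher ranged from 0 to 5, the 4 lower from 2 to 5, and the 3 posterior regulators higher from 1 to 5. Over aEpiLC against pEpiLC, the 3 antagonists lower ranged from 1 to 5. The causes were not tested. Depth limits Six3, Rax, Lhx5, Hesx1 and Emx2, which had at most 14 counts in a library.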

Other observations

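Of the placode and surface ectoderm markers, tissues that neighbour the anterior neural plate, 2 of 8 tested rose in aEpiLC over EpiLC. Krt8, an epithelial keratin, had 18.7, 21.5 and 24.4 CPM in EpiLCs, 91.0, 104 and 106 CPM in aEpiLCs and 46.8, 37.2 and 37.0 CPM in pEpiLCs, with a rise of 2.22 on the log2 scale in aEpiLC over EpiLC (edgeR, adjusted p = 3.01e-09). Eya1, a placode gene, had 0.420, 0.424 and 0.308 CPM in EpiLCs and 2.44, 1.80 and 1.66 CPM in aEpiLCs (log2 fold change 2.34, adjusted p = 9.42e-05). Six4, a paralog of Six3, fell from 56.3, 69.6 and 61.2 CPM to 25.1, 26.8 and 24.5 CPM (log2 fold change -1.29, adjusted p = 9.64e-08), and Six5 rose from 4.01, 3.54 and 4.88 CPM to 8.68, 8.82 and 9.61 CPM (log2 fold change 1.12, adjusted p = 5.90e-05).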
